A study of Mus musculus with 3 samples.

Results

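Chemokines, chemokine receptors and the regulators of their G protein signalling were read in cultured cells labelled naive CD4+ T cells. Naive CD4+ T cells are helper T lymphocytes before they meet antigen. The arrays measured the cells after culture, and whether they were still naive was not tested. The set held 33 genes, namely 12 chemokines, 15 chemokine receptors, the G protein subunit gene Gnai2 and 5 RGS (regulator of G protein signalling) genes. A probe set, the group of array probes that reports a transcript, was used if the platform annotation gave it exactly 1 gene symbol. By this rule 32 of the 33 genes had a value, of 19935 genes in all, and each of the 32 had a single probe set. Rgs10 was not analysed here.

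The donors of the cells were wild-type C57BL/6 mice, 8 weeks of age. The control culture received medium with vehicle, and the others received IL-21, a cytokine that signals through the common gamma chain, or IL-6 + TGFb1, the combination used in culture to drive Th17 differentiation. The 3 cultures gave 3 arrays, without replicates. The labels used here do not give cytokine doses, culture times, whether the T cell receptor was stimulated or how many animals were pooled. Every difference below thus compares 2 arrays and carries neither an error from replicates nor a test.

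Chemokines are small secreted proteins that direct the movement of leukocytes. They bind membrane-spanning receptors that signal mainly through inhibitory G proteins of the Gi class, and Gnai2 encodes the main Gi alpha subunit of lymphocytes. RGS proteins speed the return of the G protein to its inactive state and so shorten the signal. In T helper cells the receptor set differs by lineage: CXCR3 is typical of Th1 cells, CCR4 and CCR8 of Th2 and regulatory T cells, CCR6 of Th17 cells and CXCR5 of follicular helper cells.

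Values are probe set intensities on a linear scale, and differences are those of log2(intensity + 1). A gene was compared where its brightest array reached 187, the median intensity of the whole table, and 11003 genes did. Of the 32 measured genes of the set, 18 were compared and 14 were dim on every array. The dim genes reached at most 45.5 to 182, with Ccl1 (182) and Cx3cr1 (179) just under the filter. Of the 18 compared genes, 12 were above the filter on all 3 arrays. Ccl20 was above it on 1 array alone, and Cxcl9, Cxcl10, Ccr6, Cxcr5 and Rgs2 on 2 arrays. Ties were common in the deposited values: 2 genes of the set were exactly equal on all 3 arrays and 6 on 2 of them. For scale, 474 other genes had 2 bright probe sets each. The 95th percentile of the gap between these was 0.41 log2 units for IL-21 minus medium, 0.37 for IL-6 + TGFb1 minus medium and 0.35 between the treated cultures. Such gaps reflect error between probe sets and leave out any spread between cultures.

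The labelled cell type was checked against marker genes. All 8 measured T cell markers were bright, Cd3e and Cd4 among them, and their summed intensity was 37248 in medium, 40002 in IL-21 and 40348 in IL-6 + TGFb1. Of 4 NK cell and 7 granulocyte and mast cell markers, 0 reached the filter, and of 7 macrophage and monocyte markers 1 did (Cd68). Of 5 B cell markers 1 reached it (Cd79b), and of 8 dendritic cell markers 3 did (Zbtb46, Batf3 and H2-Ab1). No marker was at 0, as probe sets keep a background signal. The CD8 T cell gene Cd8b1 was bright, at 810 in medium, 731 in IL-21 and 616 in IL-6 + TGFb1, while Cd8a was dim. The medium array had a median intensity of 191, the IL-21 array of 182 and the IL-6 + TGFb1 array of 188.

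Few genes of the set differed by 2-fold. Ccl3, a chemokine that attracts macrophages and effector T cells, was 3.85-fold lower with IL-6 + TGFb1 than with medium. Ccr6, the receptor for CCL20, was 2.43-fold lower in the IL-21 culture than in that with IL-6 + TGFb1. The Ccr6 value with IL-21, 183, was under the brightness filter, so the size of this difference is poorly measured. Just short of 2-fold were Ccl3 with IL-21, 1.99-fold lower than medium, and Cxcr3, the receptor for the interferon-inducible chemokines, 1.96-fold higher with IL-21. Every other difference of the compared genes was under that of Ccl3 between the treated cultures, 1.93-fold.

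The sequences before the start sites of Ccl3 and Ccr6 are shown because these were the genes past 2-fold in a comparison. They were taken from RefSeq (GRCm38.p6), which held promoter windows for 24 of the 33 genes. Each is the 250 bases before an annotated start, and Ccr6 has 2 starts. Capitals mark matches on either strand to TTCNNNGAA, a core bound by STAT proteins, to a loose NF-kB core (GGG and CC separated by 5 bases of any kind), or to TGANTCA, the AP-1 core.
Ccl3, chr11:83649379-83649628, strand -: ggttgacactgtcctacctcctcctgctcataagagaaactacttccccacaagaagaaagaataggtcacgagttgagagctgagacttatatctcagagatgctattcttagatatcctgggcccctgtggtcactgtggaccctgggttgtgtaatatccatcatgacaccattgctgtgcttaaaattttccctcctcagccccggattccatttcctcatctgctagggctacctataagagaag
Ccr6 start 1, chr17:8235793-8236042, strand +: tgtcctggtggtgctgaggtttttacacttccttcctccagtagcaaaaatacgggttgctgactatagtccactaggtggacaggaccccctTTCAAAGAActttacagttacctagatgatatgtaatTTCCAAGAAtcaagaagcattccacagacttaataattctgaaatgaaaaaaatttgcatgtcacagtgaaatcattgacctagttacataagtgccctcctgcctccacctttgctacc
Ccr6 start 2, chr17:8242276-8242525, strand +: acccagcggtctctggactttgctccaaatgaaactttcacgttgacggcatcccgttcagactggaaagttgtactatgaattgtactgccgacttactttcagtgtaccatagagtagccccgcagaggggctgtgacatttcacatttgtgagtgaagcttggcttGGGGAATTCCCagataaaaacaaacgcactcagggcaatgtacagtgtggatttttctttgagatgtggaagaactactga
The window of the first Ccr6 start held 2 matches to TTCNNNGAA, TTCAAAGAA beginning 157 bases and TTCCAAGAA 120 bases before the start. Of 32851 such windows over all annotated starts, 7.02% held at least 1 match and 0.317% at least 2. Of the set, 2 genes had this motif in a window, Ccr6 and Ccl17. The window of the second Ccr6 start held overlapping matches to the loose NF-kB core that begin 81 and 80 bases before the start, GGGGAATTCC and GGGAATTCCC. That motif occurred in 45.8% of all windows and in 16 of the 25 windows of the set. The Ccl3 window held no match to these motifs, and TGANTCA was found in 6.75% of all windows and in those of Ccr3, Ccr4 and Cxcl10. A match is a run of letters and was not tested as a binding site.

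Of the 5 compared CC chemokine genes, all lay below medium in the IL-21 culture and 4 in the IL-6 + TGFb1 culture, where Ccl20 was above it. Of all compared genes 28.6% and 36.6% lay below medium. Ccl20 with IL-21 was below it by only -0.06, which became 0.01 after centring the arrays on their medians and 0.02 after quantile normalization. Past the 95th percentile of the gap between probe sets were Ccl3 in both treated cultures, and Ccl4, Ccl20 and Ccl22 with IL-6 + TGFb1 alone. CCL3, CCL4 and CCL5 are released by activated T cells, and CCL3 and CCL5 are ligands of CCR1. The intensity of Ccl3 was 4915 in medium, 2465 in IL-21 and 1277 in IL-6 + TGFb1. The medium array was highest and the IL-6 + TGFb1 array lowest. The log2 difference from medium was -0.995 with IL-21, where 12 of the 11003 compared genes were lower, and -1.94 with IL-6 + TGFb1, where 8 were lower. Between the treated cultures Ccl3 was higher with IL-21 by 0.95.

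Ccl4 lies next to Ccl3 on chromosome 11 in the GRCm38.p6 gene order, with 0 protein-coding genes between them, and Ccl5 lies nearby with 2 between (Ccl9 and Ccl6, both dim). Ccl4 had intensities of 300 in medium, 231 in IL-21 and 197 in IL-6 + TGFb1. Its log2 differences from medium were -0.38 and -0.61, so the order of the arrays was that of Ccl3 with smaller steps. Ccl5, which memory and cytotoxic T cells store and release, had 828 in medium, 741 in IL-21 and 672 in IL-6 + TGFb1. Its differences from medium, -0.16 and -0.30, were within the 95th percentile of the gap between probe sets.

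Ccl22, a ligand of CCR4 made by dendritic cells and activated T cells, stood at 298 in medium, 254 in IL-21 and 194 in IL-6 + TGFb1. The differences from medium were -0.23 and -0.62. Ccl17, the other CCR4 ligand and separated from Ccl22 on chromosome 8 by 1 gene (Cx3cl1), was dim and exactly equal on all 3 arrays, at 162. Ccl3, Ccl4, Ccl5, Ccl22 and the receptor gene Cxcr5 shared the order of medium highest and IL-6 + TGFb1 lowest. These were 5 of the 18 compared genes of the set, and 7.53% of all compared genes had this order. The summed intensity of the CD8 T cell markers had the same order, 973, 876 and 772. That sum was mostly Cd8b1 (810, 731 and 616), while the dim Cd8a had another order (163, 145 and 155). The part of CD8 T cells in these results was not tested. The summed dendritic cell markers did not have that order, at 1684 in medium, 1862 in IL-21 and 1795 in IL-6 + TGFb1. Of the bright ones, Batf3 (614, 694 and 711) and H2-Ab1 (317, 478 and 358) were lowest in medium. Zbtb46 (212, 181 and 191) was highest there. Of the dim ones, Itgax, Siglech and Cd209a were highest in medium, and Flt3 with IL-6 + TGFb1. Xcr1 was 101 in both. The part of dendritic cells was not tested either. In RNA of whole cultures, fewer cells that express a gene and less RNA per cell cannot be told apart.

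Ccl20, the ligand of CCR6, went the other way. Its intensity was 136 in medium, 130 in IL-21 and 214 in IL-6 + TGFb1, so that only the last array was above the brightness filter. The difference from medium was -0.06 with IL-21 and 0.65 with IL-6 + TGFb1. Between the treated cultures the difference of Ccl20, IL-21 minus IL-6 + TGFb1, was -0.71, where 37 of the 11003 compared genes were lower still. Since Ccl20 was compared only through its highest array, the size of these differences is poorly measured.

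Ccl1, a ligand of CCR8, was dim, at 182 in medium, 119 in IL-21 and 129 in IL-6 + TGFb1. Xcl1, a C chemokine that attracts cross-presenting dendritic cells, was dim as well, at 136, 130 and 113 in the same order. Of the interferon-inducible ligands of CXCR3, Cxcl9 had 206 with medium, exactly the same with IL-21, and 178 with IL-6 + TGFb1. Cxcl10 had 176 in medium, 217 in IL-21 and 194 in IL-6 + TGFb1, and its differences from medium were 0.30 and 0.14. Both lay close to the filter. Cxcl11 (88.5 to 93.1) and Cxcl16, the ligand of CXCR6 (62.3 to 63.9), were dim on all arrays.

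**Figure D1:**
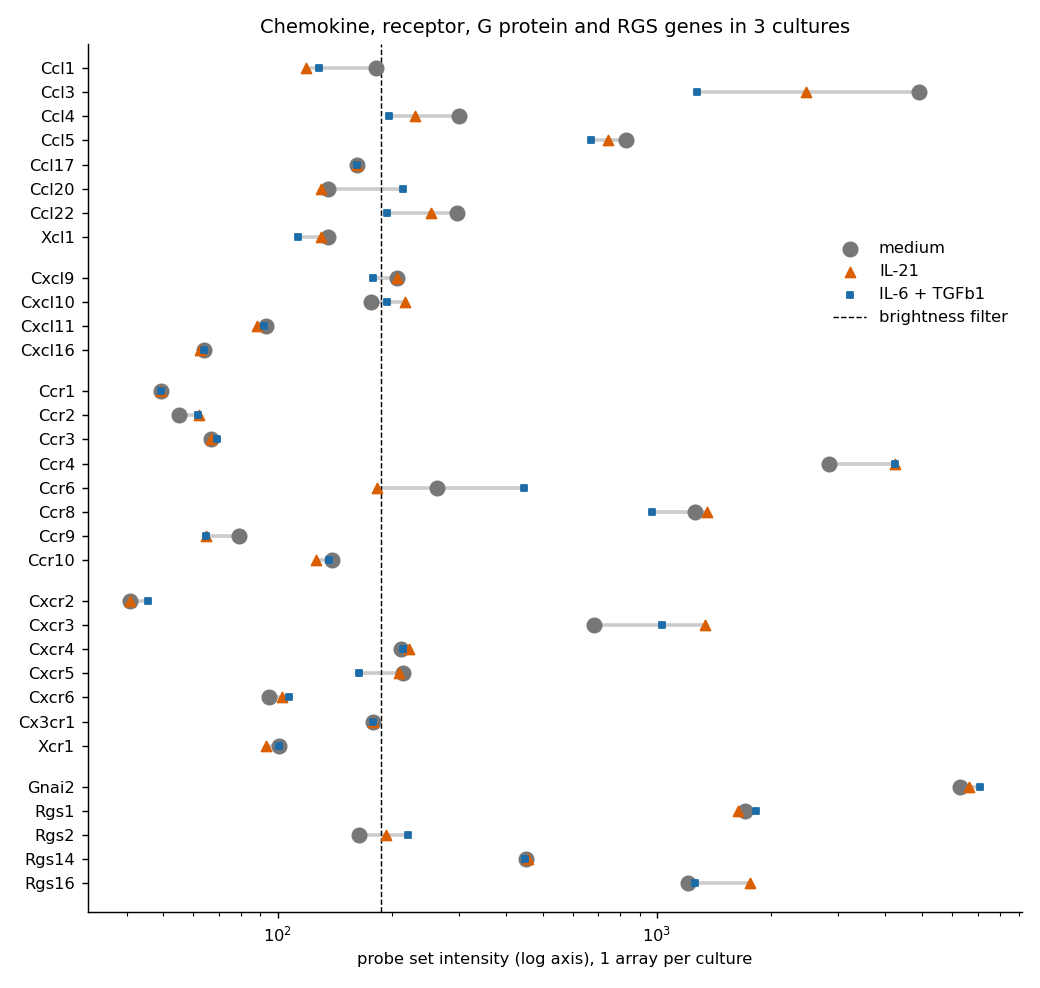
Probe set intensity (log axis) of the 32 measured genes on the medium (grey circle), IL-21 (orange triangle) and IL-6 + TGFb1 (blue square) arrays, 1 array per culture, with grey lines joining the lowest and highest. Ccl3 spans 1277 to 4915, Ccr6 spans 183 to 446, and 14 genes lie left of the brightness filter of 187 (dashed line) on every array.

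Among the receptors, Ccr6 had the treated cultures on opposite sides of medium, each by over 0.5 log2 units. CCR6 guides Th17 cells and other leukocytes to mucosal and inflamed tissue. Its intensity was 263 in medium, 183 in IL-21 and 446 in IL-6 + TGFb1. The IL-6 + TGFb1 array was highest, and the IL-21 array was the lowest and just under the brightness filter. The log2 difference from medium was -0.52 with IL-21 and 0.76 with IL-6 + TGFb1. The direct difference of IL-21 minus IL-6 + TGFb1, which does not use the medium array, was -1.28, and 11 of the 11003 compared genes were lower. Ccl20 and Ccr6 thus had the same order of arrays, with Rgs1 as the only other compared gene of the set in it. Of all compared genes 5.13% had that order. For Ccl20 it rests on 136 in medium against 130 in IL-21, both under the brightness filter. The difference of Ccl20 with IL-21 changed from -0.06 to 0.01 after centring the arrays on their medians and to 0.02 after quantile normalization. For Rgs1 it changed from -0.06 to 0.00 after centring. The shared order thus depends on the processing.

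Cxcr3 was higher than medium in both treated cultures. It had an intensity of 684 in medium, 1340 in IL-21 and 1031 in IL-6 + TGFb1. The differences from medium were 0.97, where 60 compared genes were higher, and 0.59, where 280 were higher. Both treated cultures are set against the same medium array. The direct difference between them was 0.38, just past the 95th percentile of the gap between probe sets.

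Ccr4, whose product binds CCL17 and CCL22, was higher than medium by the same amount in both treated cultures. It had 2843 in medium, 4238 in IL-21 and 4247 in IL-6 + TGFb1. Both differences were 0.58, or 1.49-fold, and use the same medium array. The treated cultures were 0.00 apart. The ligand gene Ccl22 had the opposite direction in both, against that same array. Ccr8, the receptor for CCL1, had 1259 in medium, 1353 in IL-21 and 972 in IL-6 + TGFb1. The array with IL-6 + TGFb1 was lowest, 0.37 below medium and 0.48 below IL-21.

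Cxcr5, which draws follicular helper T cells into B cell follicles, had 214 in medium, 209 in IL-21 and 164 in IL-6 + TGFb1. It was near medium with IL-21 (-0.03), and its difference with IL-6 + TGFb1 was -0.39. Cxcr4, the receptor for CXCL12, was nearly level at 211, 222 and 214, with differences from medium of 0.07 and 0.02.

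The other receptor genes of the set were dim on all 3 arrays. They include 6 that lie in the same stretch of chromosome 9 in the GRCm38.p6 gene order, namely Ccr9, Cxcr6, Xcr1, Ccr1, Ccr3 and Ccr2. Their intensities were between 49.4 and 107, and their differences over the 3 comparisons between -0.28 and 0.17. Ccr9, a gut homing receptor, had 79.3 with medium and 64.9 in each treated culture. Ccr1 was exactly equal on all arrays (49.4). Ccr2, a receptor of monocytes and effector T cells, had 55.1, 62.2 and 61.9. Outside that stretch, Ccr10 (126 to 139), Cx3cr1 (178 to 179) and Cxcr2, a neutrophil receptor (40.9 to 45.5), were dim as well. At such intensities the data do not show whether these genes were expressed.

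**Figure D2:**
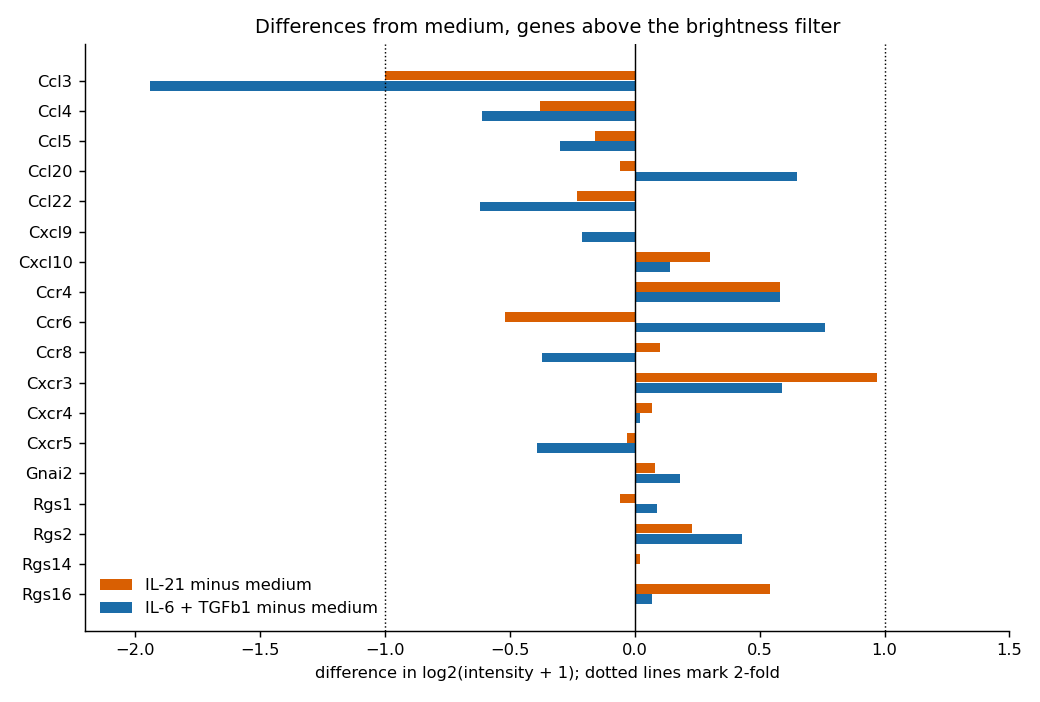
Difference in log2(intensity + 1) from medium of the 18 compared genes, with IL-21 (orange bars) and with IL-6 + TGFb1 (blue bars), 1 array per culture and no error bars. Ccl3 lies at -0.995 and -1.94, Cxcr3 at 0.97 and 0.59, and Ccr6 is on opposite sides of 0 at -0.52 and 0.76.

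Of the 5 measured Gnai2 and RGS genes of the set, Rgs16 had the highest difference from medium with IL-21. RGS16 is induced in activated T cells. Its intensity was 1206 in medium, 1757 in IL-21 and 1263 in IL-6 + TGFb1. The IL-21 array stood above both others, by 0.54 over medium and by 0.48 over IL-6 + TGFb1, while IL-6 + TGFb1 was within 0.07 of medium.

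Rgs2, which acts mainly on Gq proteins, had 164 in medium, 193 in IL-21 and 221 in IL-6 + TGFb1. The differences from medium were 0.23 and 0.43, from a medium value under the filter. Rgs1, which dampens the response of lymphocytes to chemokines and is not far from Rgs2 on chromosome 1 (with 1 gene between, Rgs13), was bright and level. It had 1711 in medium, 1639 in IL-21 and 1825 in IL-6 + TGFb1, and its differences from medium were -0.06 and 0.09. Rgs14, which also binds Ras-family proteins, had 451, 456 and 450. Gnai2 had 6286 in medium, 6664 in IL-21 and 7103 in IL-6 + TGFb1, or 0.08 and 0.18 above medium. All of the differences of Rgs1, Rgs14 and Gnai2 were within the 95th percentile of the gap between probe sets.

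The set was then read against all compared genes. With IL-21, of the 18 compared genes 0 exceeded medium by 2-fold or more and 0 lay below it by as much, against 0.482% and 0.109% of all compared genes. With IL-6 + TGFb1, 0 were higher and 1 was lower (Ccl3), against 0.673% and 0.364%. Between the treated cultures 0 were at least 2-fold higher with IL-21 and 1 was lower (Ccr6), against 0.273% and 0.191%. The median difference of the compared genes of the set was 0.01 with IL-21, 0.04 with IL-6 + TGFb1 and 0.15 between the treated cultures. Over all compared genes it was 0.04, 0.02 and 0.00. Over all 32 measured genes of the set, dim ones included, it was 0.00 in each comparison. Genes enter the comparison through their highest array, so these counts and medians describe the set and support nothing further.

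A threshold of 1.5-fold was added after the values were seen. By it, Cxcr3 was higher and Ccl3 lower with IL-21, where 2.04% and 0.5% of all compared genes passed. With IL-6 + TGFb1, Ccl20, Ccr6 and Cxcr3 were higher and Ccl3, Ccl4 and Ccl22 lower, against 2.61% and 1%. Between the treated cultures Ccl3 was higher with IL-21, and Ccl20 and Ccr6 were lower, against 0.927% and 0.527%. The gap between probe sets gave a wider list. Its 95th percentile was passed by 5 genes of the set with IL-21 (Ccl3, Ccr4, Ccr6, Cxcr3 and Rgs16), 9 with IL-6 + TGFb1 and 8 between the treated cultures. Of all compared genes, 6.4%, 9.12% and 4.3% passed it.

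**Figure D3:**
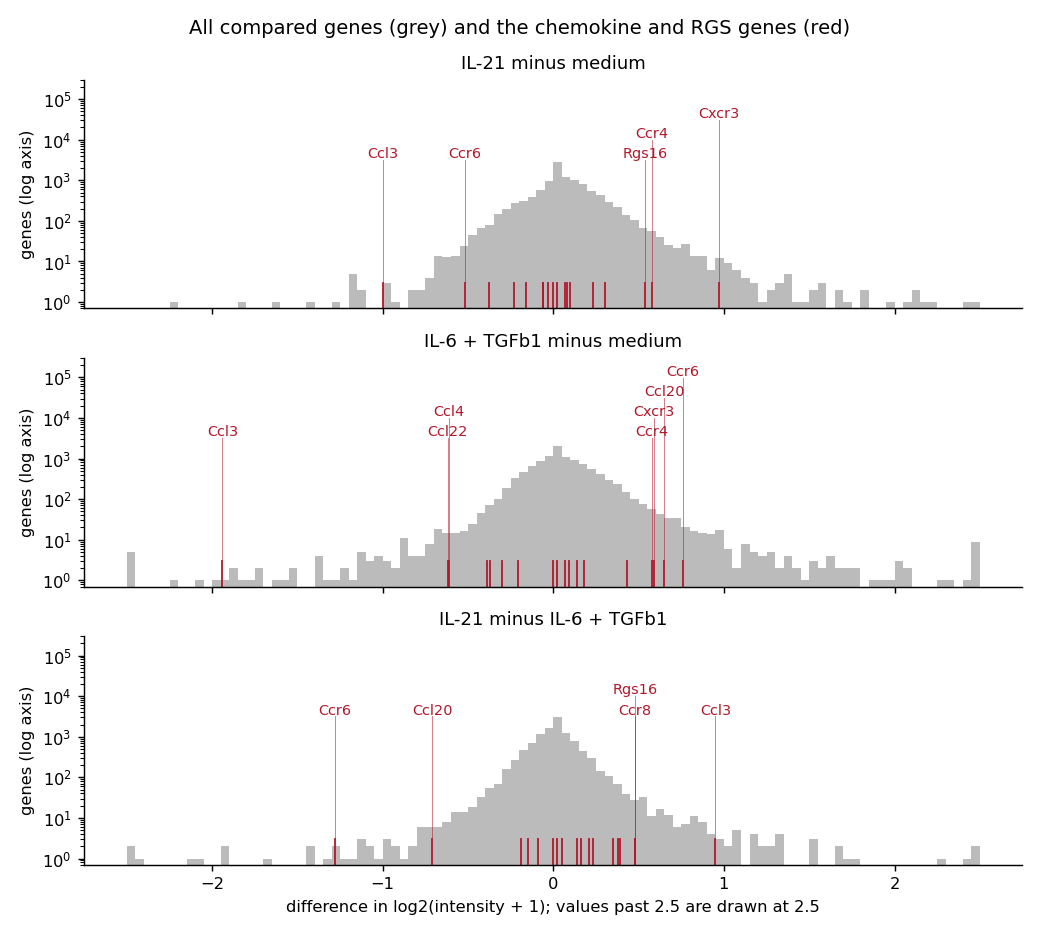
Number of compared genes (log axis, grey histogram of 11003 genes) by difference in log2(intensity + 1) in each comparison, with the 18 genes of the set as red marks and those at least 0.45 from 0 named. Ccl3 lies at the lower edge in both comparisons with medium, and Ccr6 at -1.28 lies at the lower edge between the treated cultures.

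Set beside their receptors, the ligand genes did not share a pattern. For CCL20 and CCR6, both genes were highest with IL-6 + TGFb1. For CCL22 and CCR4, the ligand gene was highest and the receptor gene lowest with medium. For CXCR3, the receptor gene was highest with IL-21, as was Cxcl10, while Cxcl9 was equal with medium and IL-21. For CCL1 and CCR8, the ligand gene was dim. For the pairs of CCL3 or CCL5 with CCR1, the receptor gene was dim. Both genes were dim in the pairs of XCL1 with XCR1 and CXCL16 with CXCR6.

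Other genes of the pathway were read from lists of ligands and receptors, RGS genes, G proteins with receptor kinases and arrestins, and signalling proteins of cell movement. Of 30 other ligand and receptor genes measured, 6 were compared. None of these was past 2-fold in any of the 3 comparisons. Ccr7, the lymph node homing receptor, was bright on all arrays, at 6927 in medium, 6060 in IL-21 and 6681 in IL-6 + TGFb1. Its differences from medium were -0.19 and -0.05. Ackr3, a scavenging receptor for CXCL12, was dim (71.3 to 74.6). The list of other RGS genes also held Axin1, which is not named as an Rgs gene. Of the 17 measured genes of that list 5 were compared, Axin1 among them (0.04 and 0.05). Their differences from medium were between -0.12 and 0.19. Rgs3, at -0.12 in both, had a dimmer probe set that gave 0.03 and 0.07.

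The G protein, kinase and arrestin list had 24 compared genes, with 20 above 0 with IL-21 and 21 with IL-6 + TGFb1. Its median was 0.11 and 0.12, and 59.8% and 56.3% of all compared genes were above 0. None of the 24 was past 2-fold. Arrb1, which encodes beta-arrestin 1, a protein that uncouples activated receptors, had 688 in medium, 1192 in IL-21 and 1162 in IL-6 + TGFb1. It was higher than medium by 0.79 and 0.76, both against the same medium array, while the other arrestin gene Arrb2 had 0.03 and 0.10. Gnai3, which encodes another Gi alpha subunit, had 0.07 and 0.00. Gnb5, a G protein beta subunit that pairs with some RGS proteins, and Gng12, a gamma subunit, were named after their values were seen. Gnb5 had differences of 0.55 and 0.80, and Gng12 of -0.24 and -0.51.

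In the signalling list 32 genes were compared, with 23 above 0 with IL-21 and 24 with IL-6 + TGFb1, and a median of 0.08 in each. Of all compared genes 59.8% and 56.3% were above 0, with medians of 0.04 and 0.02. The sphingosine phosphate receptor gene S1pr1, which directs exit from lymph nodes, was past 2-fold with IL-6 + TGFb1, and no other compared gene of the list was in any of the 3 comparisons. S1pr1 had 273 in medium, 393 in IL-21 and 595 in IL-6 + TGFb1, with differences of 0.52 and 1.12. With IL-6 + TGFb1, 0.673% of all compared genes were at least 2-fold higher than medium. The exchange factor gene Dock2, which links chemokine receptors to Rac, was level at 2937, 2936 and 2937. Jak2, named after its values were seen, had the highest difference of the list with IL-21, 0.73, and 0.40 with IL-6 + TGFb1.

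**Figure D4:**
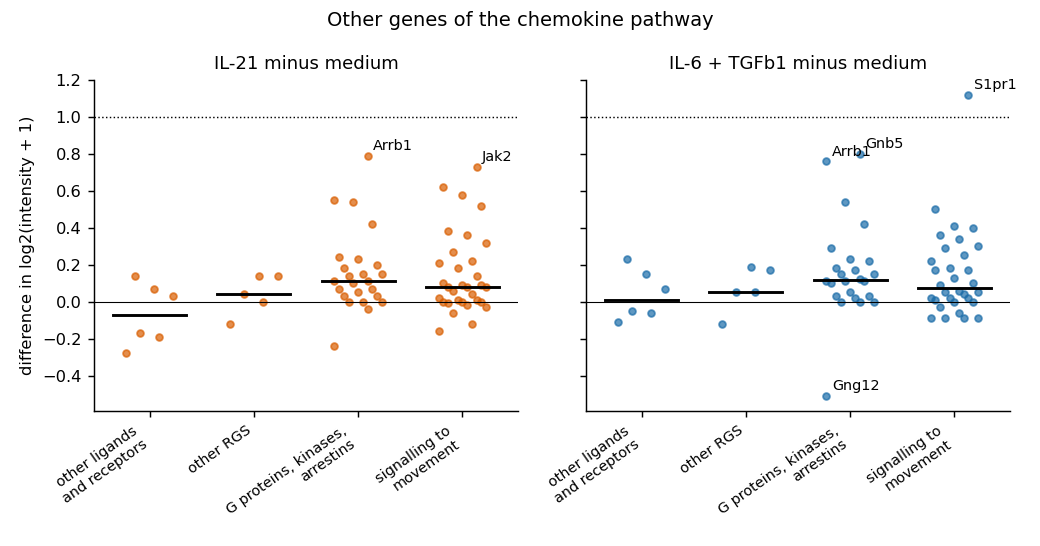
Difference in log2(intensity + 1) from medium of the compared genes in 4 other pathway lists, with IL-21 (left, orange) and IL-6 + TGFb1 (right, blue), where each point is a gene and each black bar the list median. S1pr1 lies above the dotted 2-fold line at 1.12 with IL-6 + TGFb1, and Arrb1 lies at 0.79 and 0.76.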

How the data were processed

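RNA was measured on 3 arrays, 1 for each culture. Per the labels' protocols, RNA was fragmented, biotin-labelled with an Affymetrix whole-transcript kit and sent out for hybridization. The deposited file holds intensities of 28815 probe sets on a linear scale, a unit read from the values (25.5 to 20652). Per the submitters' processing notes the build was mm8. The summarization and normalization the authors applied are not given in the sources used here. Platform annotation gave 1 symbol to 21780 probe sets, several to 1605 and none to 5430, and 21689 of the first matched a RefSeq gene (GRCm38.p6, used for names, gene order and promoter windows).

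For genes with several probe sets the one with the highest mean was used. Differences of log2(intensity + 1) were taken with no further normalization, using Python 3.11.15, pandas 2.3.3 and numpy 2.4.6, and the steps were tested on simulated data. No test could be made from single arrays, and the number of arrays limits the precision. The 2-fold threshold is 1 log2 unit in either direction. Every gene of the set was named. Pathway genes were named if past 2-fold in a comparison or fixed by name, and the few others are marked in the text. The members and lists were chosen with earlier results of these data known. The 8 alternatives concerned the pseudocount, normalization between arrays, the brightness filter, low values and the choice of probe set, and a 1.5-fold threshold was added later.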

Additional observations from a re-analysis of the deposited data

Results flagged for a closer look

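Ccr6 drew attention because its differences from medium were at least 0.5 log2 units in opposite directions in the treated cultures. It was -0.52 with IL-21 and 0.76 with IL-6 + TGFb1, so that the cultures differed by -1.28. With 1 array per culture this difference was not tested. Over the alternative settings the direct difference ranged from -1.28 to -1.21.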

How the results depend on the processing

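No difference of a compared gene could be moved by 5 of the 8 settings (both filters, raised low values and both choices of probe set). The other 3 (pseudocount, quantile normalization and centring) gave 162 recomputed differences, of which 154 kept their direction or moved by at most 0.05, 2 passed 2-fold and 6 small ones changed sign or moved by more than 0.05 from 0, the largest Rgs14 at -0.09 with IL-21 after quantile normalization. The difference of Ccl3 with IL-6 + TGFb1 lay between -1.96 and -1.92 throughout. With IL-21, 1 gene was at least 2-fold lower after quantile normalization (Ccl3, -1.01) and 1 at least 2-fold higher after centring the arrays on their medians (Cxcr3, 1.03). With the brightness filter at the 75th percentile 8 genes of the set were compared, which left out Ccr6, so that 0 were 2-fold lower between the treated cultures. The median difference with IL-21 was 0.09 with that filter and 0.07 after centring. Between the treated cultures it was 0.26 with that filter and 0.00 with no filter. The added 1.5-fold threshold gave 1 higher and 1 lower gene with IL-21, 3 and 3 with IL-6 + TGFb1, and 1 and 2 between the treated cultures. No paired analysis was possible because each group had 1 array. Signal near the background limits what can be read of the 14 dim genes.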

Other observations

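Values of 4 further pathway genes are given here, chosen after they were seen, and 59.8% and 56.3% of all compared genes lay above medium with IL-21 and IL-6 + TGFb1. S1pr4, another sphingosine phosphate receptor gene, had intensities of 1098 (medium), 1636 (IL-21) and 1351 (IL-6 + TGFb1), with differences of 0.58 and 0.30. Gpr183, the oxysterol receptor that guides lymphocytes within lymphoid tissue, had 735, 958 and 975, with differences of 0.38 and 0.41. The second difference of S1pr4 and the first of Gpr183 were within the 95th percentile of the gap between probe sets. Tiam1, a Rac exchange factor gene, had differences of 0.62 and 0.50, and Gpsm2, which binds Gi alpha subunits, had 0.54 in each. Both treated cultures are set against the same medium array.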
